A study of Mus musculus with 37 samples.

Results

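Left ventricular RNA taken 3 days after adrenaline without cardiac arrest was compared with RNA from mice without an intervention. The comparison holds 9 of the 37 libraries of the series, 4 from the adrenaline (Adr) group and 5 from the Naïve group, and 13239 of the 56748 listed genes. A gene entered when it reached 0.5 FPKM (fragments per kilobase of gene, scaled to the depth of the library) in at least 4 of these 9 libraries. The comparison is given with all 4 Adr libraries and again without Adr replicate 3, a library that stood apart from the other 8.

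Both groups were young adult C57BL/6J mice of both sexes under isoflurane. Adr mice, labelled sham 3 d, were intubated, ventilated and given saline into the left ventricle through the chest wall and then adrenaline by the same route. Naïve mice, labelled as having no intervention, were neither intubated nor injected. They were euthanized after the baseline imaging, whereas Adr mice recovered for 3 days and were imaged again. Adrenaline, the injections, ventilation, the recovery time and the second imaging therefore cannot be told apart here. The apex was discarded, and each library came from a piece of left ventricle, a bulk tissue in which fewer cells of a type and less RNA per cell cannot be told apart. By Xist and Ddx3y, the Adr group held 2 males and 2 females and the Naïve group 2 males and 3 females. The numbers in the labels' descriptions do not overlap between the groups, and what they stand for is not given in the sources used here.

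Adrenaline binds alpha- and beta-adrenergic receptors. In cardiomyocytes, beta receptors act through the stimulatory G protein, adenylyl cyclase and protein kinase A to raise calcium release and contractile force. The same cascade turns on immediate early genes, which encode transcription factors such as Jun, Fos and Egr1, within minutes, and the transcripts are short-lived. Large doses of catecholamines are known to injure myocardium, after which monocytes, macrophages and activated fibroblasts fill the injured area.

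The libraries held 13.4 to 24.7 M (mega) fragments on genes. Adr replicate 3 was not among the shallow ones, at 17.2 M. Genes of the mitochondrial genome took 9.36% of its fragments, against 28.1%, 27.8% and 26% in Adr replicates 1, 2 and 4 and 25.2 to 30.9% in the Naïve libraries. Its 10 most abundant genes held 26% of the summed FPKM, against 46.1 to 48.7% in the other Adr libraries and 46.2 to 52.9% in Naïve. Both values lay below those of all 36 other libraries of the series, which ran from 20.8% for the mitochondrial share and from 39.5% for the 10 top genes. Naïve replicate 4 also differed from its group, with 13475 genes above 0 FPKM against 16297 to 16925 in the other Naïve libraries. The number of genes above 0 was 18064 ± 1523 (SD, n = 4) in Adr and 15915 ± 1386 (n = 5) in Naïve (exact two-sided permutation p = 0.032, 0.095 after adjustment over 6 measures), and 17779 ± 1731 (n = 3) without replicate 3 (exact permutation p = 0.071). In Adr replicates 1 to 4 it was 16947, 16622, 18917 and 19769, at 13.9, 15.6, 17.2 and 24.7 M fragments. The part of depth in this difference was not tested.

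**Figure D1:**
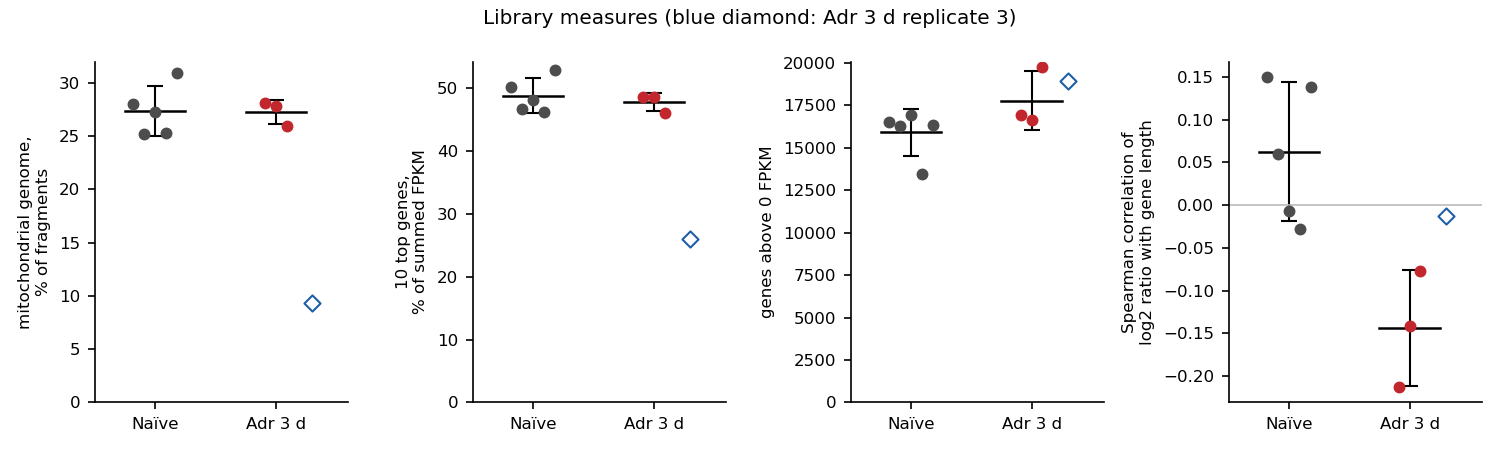
Library measures in the Naïve (n = 5) and Adr 3 d (n = 4) groups. Points are libraries, the blue diamond is Adr replicate 3, and bars give the mean ± SD of Naïve and of Adr replicates 1, 2 and 4; replicate 3 lay at 9.36% for the mitochondrial share and at 26% for the 10 top genes.

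Ventricular identity was checked first. Myh6, the main myosin heavy chain of the adult mouse ventricle, stood at 1520, 1618 and 1158 FPKM in Adr replicates 1, 2 and 4 and at 379 FPKM in replicate 3, against 1440 to 1865 FPKM in Naïve. Myl2, the ventricular light chain, stood at 3031, 3314 and 2071 FPKM in replicates 1, 2 and 4 and at 613 FPKM in replicate 3. All 9 libraries therefore held ventricular transcripts, and replicate 3 held the lowest level of both genes among the 37 libraries.

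No gene passed the test. With all 4 Adr libraries, 0 of 13239 genes (0%) reached an adjusted p of 0.05 (limma on log2(FPKM + 1), Benjamini-Hochberg adjustment), and the smallest adjusted p was 0.48. Without replicate 3, 0 genes (0%) were called, and the smallest adjusted p was 0.67. Below an unadjusted p of 0.05 there were 798 genes (6.03%) with all 4 libraries, 477 with higher and 321 with lower values in Adr, and 673 genes (5.08%) without replicate 3, 415 higher and 258 lower. The limma voom test on whole fragments also called 0 genes in both comparisons, with 856 and 864 genes below an unadjusted p of 0.05. The values below are therefore descriptions of levels.

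The call of 0 genes changed under 2 settings. In a model of all 37 libraries, whose spread is estimated over all groups, 5 genes passed with replicate 3 included (adjusted p = 0.049 in limma) and 0 passed without it. C5ar2, a receptor for the complement fragment C5a, and Pole3, a subunit of DNA polymerase epsilon, were higher in Adr in that model. Cdkn2aip, Ctnna3 and Pdzd3 were lower. Pole3 stood at 14.3, 13.1, 15.2 and 14.1 FPKM in Adr against 5.61 to 9.95 FPKM in Naïve. When Naïve replicate 5 was left out, the predicted gene Gm49326 was called with and without replicate 3. It was listed at 0 FPKM in Naïve replicates 1 to 4 and at 5.9 FPKM in Naïve replicate 5, against 10.8, 4.16, 13.8 and 11.7 FPKM in Adr replicates 1 to 4.

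Immediate early genes had more small p-values than the whole set of genes, in both directions. Of 29 tested members of a list of cAMP-responsive and immediate early genes, 9 had higher and 2 had lower values in Adr below an unadjusted p of 0.05 without replicate 3, where the shares over all genes were 3.13% and 1.95%. With replicate 3 there were 10 and 3, against 3.6% and 2.42% over all genes. The median log2 fold change of the list was 0.19 without and 0.31 with replicate 3, beside 0.01 over all genes tested in both. In the model of all libraries the counts were 2 higher and 1 lower without replicate 3 and 8 and 3 with it, and without replicates 3 and 4 they were 6 and 2, with a median of 0.0036.

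Jun, which encodes a subunit of the AP-1 transcription factor, stood at 32.4, 27.2, 37.5 and 33.7 FPKM in Adr replicates 1 to 4 and at 13.8, 16, 17.9, 21.6 and 19.8 FPKM in Naïve replicates 1 to 5. All Adr libraries lay above all Naïve libraries. The log2 fold change was 0.85 ± 0.16 (SE) with replicate 3 (adjusted p = 0.48) and 0.78 ± 0.16 without it (adjusted p = 0.85).

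Egr1, a zinc finger transcription factor of the same early wave, stood at 15.9, 13.2, 38.9 and 20.4 FPKM in Adr and at 4.8, 5.01, 2.63, 3.17 and 11.3 FPKM in Naïve. The groups did not overlap, the highest Adr value was that of replicate 3, and the Naïve value nearest to Adr was that of replicate 5. Its log2 fold change was 1.88 ± 0.38 (SE) with replicate 3 and 1.58 ± 0.35 without it (limma adjusted p = 0.48 and 0.91).

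Fos, the partner of Jun in AP-1, stood at 8.31, 7.61, 45 and 12.6 FPKM in Adr and at 2.28 to 7.62 FPKM in Naïve, so that Adr replicate 2 and Naïve replicate 5 overlapped. Junb stood at 9.55, 12.8, 63.9 and 32.5 FPKM in Adr and at 4.86 to 12.6 FPKM in Naïve. Zfp36, which encodes a protein that promotes decay of cytokine mRNAs, stood at 12.3, 7.22, 29.6 and 14 FPKM in Adr against 4.51 to 8.02 FPKM. In all 3 genes replicate 3 held the highest value of the 9 libraries.

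Both members with lower values are also cAMP-responsive. Sik1, a kinase that restrains the cAMP-responsive coactivators, stood at 9.25, 10.4, 12.1 and 8.61 FPKM in Adr and at 16.8, 20.8, 15.5, 11.5 and 20.8 FPKM in Naïve. Its groups separated without replicate 3 and overlapped with it. Nr4a3, an orphan nuclear receptor, stood at 6.01, 0.252, 1 and 2.42 FPKM in Adr and at 3.94 to 10.8 FPKM in Naïve. The list therefore held values in both directions.

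**Figure D2:**
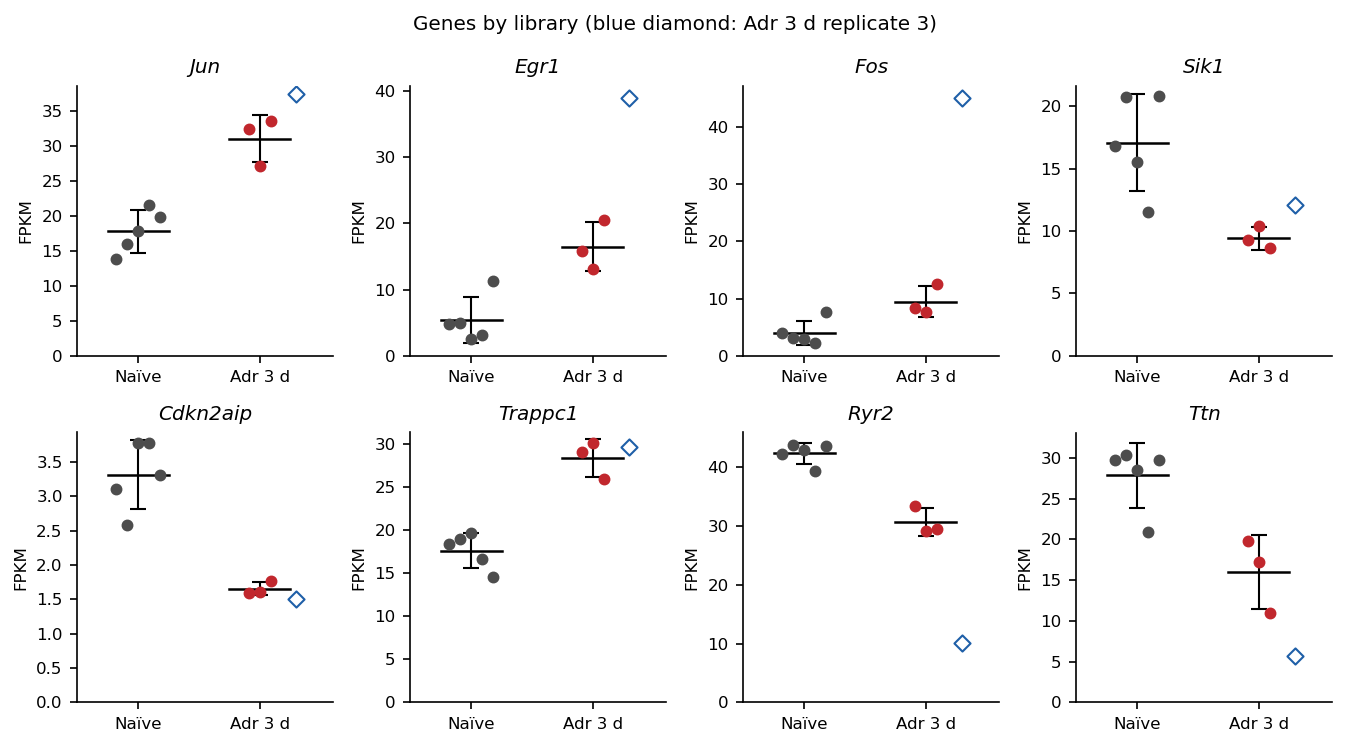
FPKM of 8 genes in the Naïve (n = 5) and Adr 3 d (n = 4) libraries. Points are libraries, the blue diamond is Adr replicate 3, and bars give the mean ± SD of Naïve and of Adr replicates 1, 2 and 4. Jun, Egr1, Trappc1 and Cdkn2aip separated the groups with all 4 libraries, and replicate 3 held the lowest Ryr2 and Ttn levels.

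Outside that list, the smallest p-values among genes with higher values in Adr fell mainly on genes at low counts. The lncRNA 2410080I02Rik had no fragment in any Naïve library and 8 to 22 fragments in the Adr libraries, which corresponded to 1.46, 3.48, 0.801 and 1.16 FPKM. Gm8066 had 1 fragment over the 5 Naïve libraries and 6 to 16 in the Adr libraries. ENSMUSG00000120878, a lncRNA, had 5 fragments over the Naïve libraries and 11 to 87 in Adr, where replicate 3 held the highest value at 7.56 FPKM. Gm6058, a processed pseudogene, had 2 fragments in Naïve and 6 to 14 in Adr. Counting error alone is large at these depths.

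Trappc1 was a better covered gene with separated groups. This gene, which encodes a subunit of a vesicle tethering complex, stood at 29.1, 30.1, 29.7 and 26 FPKM in Adr and at 14.6 to 19.6 FPKM in Naïve. Its log2 fold change was 0.68 ± 0.14 (SE) with and 0.66 ± 0.13 without replicate 3, with limma adjusted p-values of 0.48 and 0.85.

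C5ar2 stood at 1.82, 1.38, 2.33 and 2.62 FPKM in Adr and at 0.0897, 0.424, 0.94, 0 and 0.417 FPKM in Naïve. Sgtb, a cochaperone, stood at 1.06, 1.75, 0.809 and 0.792 FPKM in Adr, and at 0.291 FPKM in Naïve replicate 1, and was listed at 0 in the other Naïve libraries. In Trappc1, C5ar2 and Sgtb, replicate 3 lay among the other Adr libraries.

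Among the genes with lower values, Cdkn2aip, which encodes a regulator of the p53 pathway, stood at 1.6, 1.6, 1.5 and 1.77 FPKM in Adr against 3.11, 2.58, 3.78, 3.77 and 3.31 FPKM in Naïve. Its log2 fold change was -0.71 ± 0.15 (SE) with replicate 3 and -0.69 ± 0.16 without it (limma adjusted p = 0.48 and 0.91). Hipk2, a kinase of stress responses, stood at 4.13, 5.92, 3.89 and 6.1 FPKM against 7.21 to 10.04 FPKM. Dusp10, a phosphatase of p38 and JNK kinases, stood at 1.19, 1.27, 1.68 and 0.826 FPKM against 2.1 to 5.17 FPKM. With Ctnna3 and Ttn, described below, Rnf207, Carns1, Gm15122, Gm7335 and ENSMUSG00000120154 completed the 10 genes with separated groups, lower Adr values and the smallest p-values when all 4 libraries were compared. The groups separated in 171 genes (1.29%) with lower and in 178 genes (1.34%) with higher Adr values.

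Without replicate 3, 300 genes (2.27%) lay higher in all Adr than in all Naïve libraries and 260 genes (1.96%) lower. Several of the genes with the smallest p-values there depended on the removal. Ndufa12, a subunit of respiratory complex I, stood at 119.5, 93.2 and 134 FPKM in Adr replicates 1, 2 and 4 and at 20.7 FPKM in replicate 3, against 30.8 to 79.2 FPKM in Naïve. Its log2 fold change was 1.33 ± 0.26 (SE) without replicate 3 and 0.72 ± 0.49 with it. Wdr1, an actin disassembly factor, stood at 12.1, 10.6 and 10.6 FPKM in replicates 1, 2 and 4 and at 23.3 FPKM in replicate 3, against 15 to 17.2 FPKM in Naïve. In both genes replicate 3 lay beyond the Naïve range on the side away from the other Adr libraries. Gm11808, Gm12338, Gm25897, Tyw5 and Nol10 also overlapped between the groups once replicate 3 was included. Gm12338 is a processed pseudogene, and its value is uncertain because reads can be shared between copies.

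Among the genes with separated groups and lower values in Adr, 4 that encode cardiomyocyte proteins are given here, and their lists held others. Most members of these lists overlapped between the groups, but the shares that separated lay above that of all genes. Without replicate 3, the groups separated with lower Adr values in 1 of 19 calcium handling genes, 2 of 30 sarcomere and Z-disc genes, 3 of 21 intercalated disc genes and 2 of 20 ventricular markers, beside 1.96% of all genes, and the medians of these lists were -0.05, -0.15, -0.14 and -0.05. Ryr2, the calcium release channel of the sarcoplasmic reticulum, stood at 33.5, 29.2, 10.1 and 29.5 FPKM in Adr and at 39.4 to 43.8 FPKM in Naïve. Ttn, the giant spring protein of the sarcomere, stood at 19.8, 17.3, 5.64 and 11 FPKM against 20.8 to 30.3 FPKM. The intercalated disc genes Ctnna3, an alpha-catenin (1.43, 2.34, 0.774 and 1.72 FPKM against 2.79 to 3.57 FPKM), and Dsp, the desmoplakin of desmosomes (70.0, 63.3, 21 and 59.1 FPKM against 71.6 to 80.6 FPKM), were separated in the same way. Replicate 3 held the lowest value in all 4 of these genes, and the groups stayed apart without it.

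How levels went with gene length differed between the groups before adjustment for the number of measures, and not after it. For each library, the log2 ratio to the mean of the 8 libraries other than replicate 3 was correlated with gene length across 11508 genes, which are not independent replicates. The Spearman correlation was -0.21, -0.14, -0.01 and -0.08 in Adr replicates 1 to 4 and 0.15, 0.06, -0.01, -0.03 and 0.14 in Naïve replicates 1 to 5. Without replicate 3 the groups did not overlap (difference -0.21, exact two-sided permutation p = 0.036, the smallest this design allows, 0.21 after adjustment over 6 measures). With it the difference was -0.17 (exact permutation p = 0.032, adjusted 0.095). The part of gene length in the values of Ryr2, Ttn and the short ribosomal protein and respiratory chain genes was not tested gene by gene. Where a list is given below with the length trend removed, the trend was taken out of each library across all genes.

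The cytosolic ribosomal proteins, which are short, had 12 of 76 tested genes below an unadjusted p of 0.05 without replicate 3, all with higher values, and 11 with it, where 3.13% and 3.6% of all genes were higher. The fold change was positive in 71 of 76 genes without replicate 3, with a median of 0.20. Under quantile normalization without replicate 3, 57 genes were positive and 19 negative, with a median of 0.09. At the same unadjusted threshold 5 genes were higher there. Rpl19 stood at 369, 374, 500 and 405 FPKM in Adr and at 272 to 330 FPKM in Naïve, and Rpl21 at 19, 27, 36.2 and 25.6 FPKM against 14.1 to 17.9 FPKM. With the length trend removed, 5 of 76 genes were higher without replicate 3 and the median was 0.13. Leaving out Naïve replicate 4 as well as Adr replicate 3 gave 24 higher genes, and leaving out Adr replicate 2 or 4 with it gave 5 and Naïve replicate 1 gave 7. With replicate 3 included, the count was 3 without Naïve replicate 1, 7 without Naïve replicate 5, 6 without Adr replicate 4 and 18 without Adr replicate 1.

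Nuclear genes of respiratory complex I, which passes electrons from NADH to ubiquinone, had 5 of 37 members higher and 0 lower below an unadjusted p of 0.05 without replicate 3, beside 3.13% and 1.95% of all genes, with a median log2 fold change of 0.16. With replicate 3 the counts were 0 and 0 and the median was -0.20. Ndufs6 stood at 210, 184 and 166 FPKM in Adr replicates 1, 2 and 4 and at 58.9 FPKM in replicate 3, against 146 to 173 FPKM in Naïve. With the length trend removed and without replicate 3, 1 of 37 genes was higher and the median was 0.08, and the count was also 1 when Naïve replicate 1, 2 or 5 or Adr replicate 1 was left out as well, and 3 without Adr replicate 2. Under quantile normalization without replicate 3, 1 complex I gene was higher and the median was 0.06, with 23 genes positive and 14 negative. For complexes II to V the median was 0.12 without and -0.27 with replicate 3, and Cox4i1, a subunit of cytochrome c oxidase, stood at 1125, 1168, 374 and 1131 FPKM in Adr against 926 to 1041 FPKM. Without replicate 3, the median of complexes II to V was 0.04 with the length trend removed and 0.00027 under quantile normalization, where 22 genes were positive and 21 negative. The sign of both medians as deposited turned with replicate 3.

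Genes of the endoplasmic reticulum and the integrated stress response had positive fold changes in 27 of 29 members without replicate 3, with a median of 0.30 and 4 genes higher below an unadjusted p of 0.05, beside 3.13% of all genes. With replicate 3 there were 8 such genes, beside 3.6%, and a median of 0.50. With the length trend removed there were 3 and 8, with medians of 0.26 and 0.47. Hsp90b1, the endoplasmic reticulum chaperone GRP94, stood at 56, 52.8, 115 and 116 FPKM in Adr and at 38.1 to 54.8 FPKM in Naïve. Creld2 stood at 11.7, 15.4, 27.1 and 42.5 FPKM against 5.88 to 12.3 FPKM. Replicates 3 and 4 held the high values, and replicates 1 and 2 lay at or near the Naïve range. Without replicates 3 and 4 the list had 1 gene below an unadjusted p of 0.05 and a median of 0.05, and without replicates 2 and 3 it had 9 and 0.50. The count was 7 without Adr replicates 1 and 3 and 2 without Adr replicate 3 and Naïve replicate 2 or 4. With replicate 3 included it was 3 without Adr replicate 4 and 14 without Adr replicate 2.

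Replicate 4 held further values away from replicates 1 and 2. Herpud1, a protein of endoplasmic reticulum associated degradation, stood at 255 FPKM in replicate 4 against 73.7 and 69.9 FPKM in replicates 1 and 2 and 65.4 to 82.4 FPKM in Naïve. Serpina3n, an acute phase protease inhibitor, stood at 214 FPKM there against 5.49 and 1.3 FPKM. Actc1, the cardiac alpha-actin, stood at 1178 FPKM in replicate 4 against 5361 and 5028 FPKM, and at 4271 to 5664 FPKM in Naïve. The glucocorticoid targets Fkbp5 and Zbtb16 were also highest in replicate 4, at 10.01 and 14.9 FPKM, against 0.824 to 2.18 FPKM and 1.94 to 4.29 FPKM in Naïve. These genes were singled out after their values had been seen.

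Of 31 tested genes of the receptors and the cAMP cascade, 2 had higher and 3 lower values below an unadjusted p of 0.05 without replicate 3, beside 3.13% and 1.95% of all genes, and the median log2 fold change was -0.13. With replicate 3 there were 1 and 3, beside 3.6% and 2.42%, with a median of -0.16. In the model of all libraries there were 2 and 4 without replicate 3 and 1 and 10 with it. Omitting 1 further library gave 0 to 3 higher and 1 to 4 lower genes without replicate 3, the highest counts without Naïve replicate 4, and with replicate 3 the lower count reached 7 without Adr replicate 1. Adra1a, an alpha1 receptor, stood at 0.848, 0.969, 0.119 and 1.1 FPKM in Adr against 1.31 to 2.38 FPKM. Akap6, which anchors protein kinase A at the nuclear envelope of cardiomyocytes, stood at 8.69, 6.76, 2.36 and 5.48 FPKM against 8.77 to 10.8 FPKM. Pde4b, a cAMP phosphodiesterase, stood at 2.93, 4.19, 3.09 and 2.45 FPKM against 3.92 to 5.31 FPKM.

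Arrb1, an arrestin that uncouples receptors, stood at 5.83, 5.2, 8.21 and 7.85 FPKM against 3.3 to 5.79 FPKM, and Gnas, the stimulatory G protein, at 5.46, 5.43, 3.93 and 5.54 FPKM against 2.08 to 5.19 FPKM. Adrb1, the main cardiac beta receptor, stood at 5.78, 4.57, 1.63 and 5.25 FPKM in Adr and at 3.74 to 6.35 FPKM in Naïve. Outside replicate 3 the Adr values of Adrb1 lay within the Naïve range. Adrb3 was listed at 0 in all 9 libraries.

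The medians of the vascular cell lists differed in sign. Of 24 endothelial markers, 4 were higher and 0 lower below an unadjusted p of 0.05 without replicate 3 (median log2 fold change 0.15), and 1 was higher and 1 lower with it (median 0.09), beside the same shares of all genes as above. Without replicate 3, the higher count fell to 1 when Adr replicate 4 was also left out and to 2 without Naïve replicate 2 or 4, and was 6 without Adr replicate 1. Plvap, a protein of endothelial fenestrae, stood at 29.2, 46.2, 60.1 and 81.2 FPKM in Adr against 16.4 to 39.8 FPKM, and Pecam1 at 47.3, 55.7, 56.1 and 80.2 FPKM against 36.7 to 52.6 FPKM, so that both groups overlapped. Of 19 smooth muscle and pericyte markers, 0 were higher and 3 lower both without replicate 3 (median -0.25) and with it (median -0.41). Without replicates 3 and 4 there were 1 higher and 0 lower, with a median of -0.13, and 1 was lower without replicate 3 and Naïve replicate 1 or 2, or with sex as a covariate. With replicate 3 included, 5 were lower without Adr replicate 1 or 2 and 2 without Adr replicate 4. Myh11, smooth muscle myosin, stood at 4.72, 2.67, 2.31 and 1.97 FPKM against 4.03 to 8.44 FPKM, and Rgs4 at 6.31, 6.83, 3.46 and 1.74 FPKM against 6.26 to 10.5 FPKM.

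The medians of most immune lists were nearer 0 without replicate 3. The median of 27 resident macrophage genes was 0.57 with and 0.19 without replicate 3, that of 13 inflammatory monocyte genes 0.45 and -0.07, that of 25 genes of Fc gamma receptor phagocytosis 0.51 and 0.05, and that of 33 interferon response genes 0.27 and -0.10. The median of 6 neutrophil genes was 0.54 with and 0.35 without replicate 3, and that of 18 complement genes 0.44 and 0.32, with positive values in 5 and 15 genes without it. The neutrophil list summed to 5.95, 11.4 and 36.4 FPKM in replicates 1, 2 and 4, against 3.44 to 14 FPKM in Naïve. The complement list summed to 517, 467 and 939 FPKM there, against 363 to 606 FPKM. Of replicates 1, 2 and 4, only replicate 4 lay above the Naïve range in these sums. Cd68, a lysosomal protein of macrophages, stood at 11.5, 11.5 and 17.9 FPKM in replicates 1, 2 and 4 and at 157 FPKM in replicate 3, against 5.26 to 10.5 FPKM in Naïve. S100a8, a calcium-binding protein of neutrophils, stood at 0.544, 5.76, 13.2 and 6.15 FPKM in Adr and at 0 to 1.54 FPKM in Naïve.

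Apoe, which macrophages secrete, stood at 317, 277, 753 and 486 FPKM in Adr against 190.4 to 348 FPKM. Retnla, a gene of alternatively activated macrophages, stood at 27, 6.24, 5.88 and 7.32 FPKM against 17 to 39.1 FPKM, the replicate 1 value lying within the Naïve range. Of the nuclear RNAs, Malat1 stood at 38.7, 32.3, 49.96 and 69.3 FPKM against 60.5 to 88.8 FPKM and Neat1 at 8.12, 9.15, 6.17 and 8.63 FPKM against 9.84 to 15.1 FPKM. The share of nuclear RNA in the libraries cannot be read from these levels alone, and its part in the other values was not tested.

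**Figure D3:**
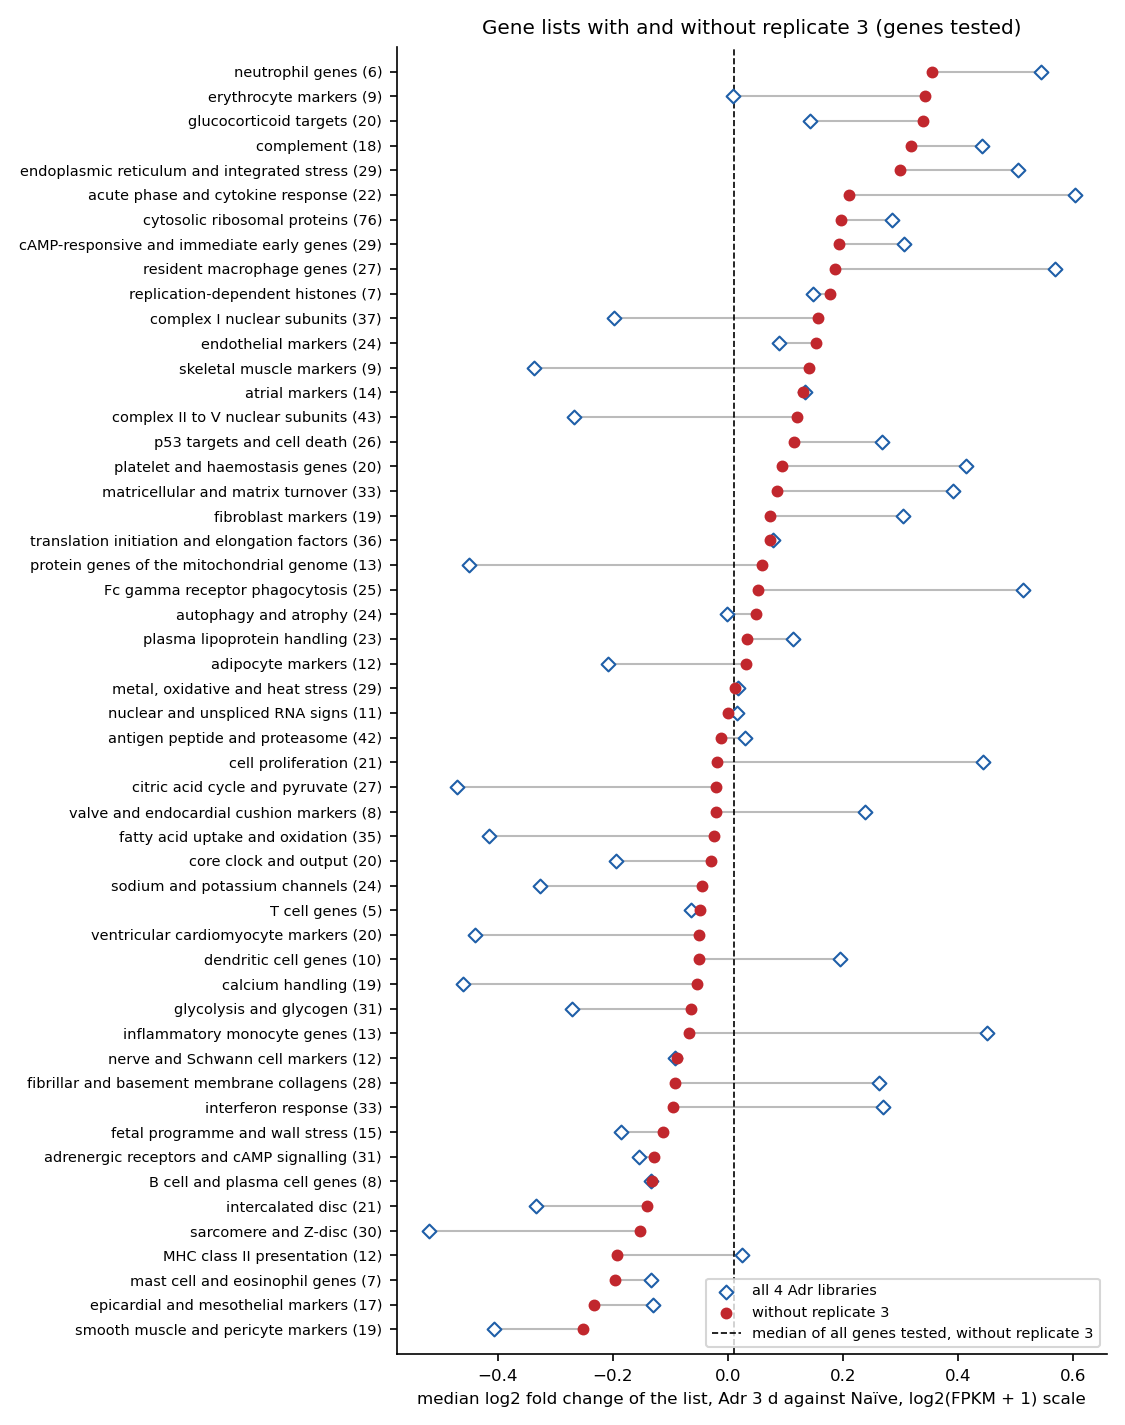
Median log2 fold change of each gene list, Adr 3 d against Naïve, with all 4 Adr libraries (open blue diamonds) and without replicate 3 (red points); the number of tested genes is in parentheses and the dashed line is the median of all genes tested without replicate 3. Lists of inflammatory monocytes, collagens, interferon response and cell proliferation lay above 0 with replicate 3 and below 0 without it, and those of complex I and complexes II to V the other way round.

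Replicate 3 itself held the highest value of the 9 libraries in 3394 of the tested genes (25.6%) and the lowest in 3171 (24%). For the other Adr libraries these shares were 6.72 to 8.61% and 6.22 to 6.34%. Among the Naïve libraries, replicate 4 came nearest, at 16.6% and 20.2%. At least 2-fold beyond the mean of replicates 1, 2 and 4 as well, replicate 3 was highest in 1089 genes (8.23%) and lowest in 1159 (8.75%). Set against all 36 other libraries of the series, it was highest in 2244 genes (16.9%) and lowest in 2082 (15.7%). Being 1 library, it has no replicate check, and its values carry no test.

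The median log2 ratio of replicate 3 to the mean of replicates 1, 2 and 4 over all genes tested was -0.02 as deposited and -0.24 when scaled to the fragments outside the mitochondrial genome. The signs below are the same under both scalings unless stated. Counts of genes above or below other libraries, here and in the figures, used the values as deposited only.

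The highest gene by ratio was Spp1, which encodes osteopontin, a protein secreted by macrophages in healing tissue, at 594 FPKM in replicate 3 against 1.24, 0.756 and 0.242 FPKM in replicates 1, 2 and 4 and at most 1.59 FPKM in Naïve. The 15 highest genes fell into a few known roles. Cthrc1 (64.5 FPKM against at most 0.125 FPKM in the other Adr libraries), Tnc (43.4 against at most 0.136 FPKM), Postn (120.5 against at most 6.48 FPKM) and Col1a1 (394 against at most 19.6 FPKM) encode matrix proteins of activated fibroblasts.

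Lgals3, Adam8, Plac8 and Arg1 are genes of monocytes and macrophages. Lgals3, or galectin-3, stood at 164 FPKM against at most 5.94 FPKM in the other Adr libraries, Adam8 at 30.6 against at most 0.774 FPKM, Plac8 at 28.6 against at most 0.726 FPKM and Arg1 at 22.6 against at most 0.215 FPKM. The chemokines Ccl7 and Ccl8, which attract monocytes, stood at 196 and 128 FPKM against at most 6.88 and 6.94 FPKM. Sprr1a, a stress protein of cardiomyocytes, stood at 85.2 FPKM and was listed at 0 in the other 8 libraries.

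The remaining genes, Sln, Myl7 and Myl4, are atrial. Sln, or sarcolipin, stood at 59.6 FPKM and was listed at 0 in the other 8 libraries. Myl7, the atrial regulatory light chain, stood at 225 FPKM against 6.53, 0.778 and 9.12 FPKM in replicates 1, 2 and 4, and Myl4, the atrial essential light chain, at 31.6 FPKM against at most 0.602 FPKM. Nppa, the atrial natriuretic peptide, which stressed ventricle also makes, stood at 169 FPKM against 16.7, 31.4 and 15.9 FPKM. Over the whole list of atrial markers, replicate 3 was highest of the 9 libraries in 6 and lowest in 3 of 14 tested genes, beside 25.6% and 24% of all genes. The summed level was 728 FPKM against 208 to 240 FPKM in the other Adr libraries and 157 to 216 FPKM in Naïve. Bmp10, an atrial ligand, was listed at 0 in all 9 libraries, and Kcna5 stood at 4.72 FPKM, below the other 8 libraries. The part of atrial tissue in replicate 3 was not tested.

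In 12 of the 15 genes replicate 3 lay above all 36 other libraries of the series. Sln, Myl7 and Myl4 were higher in another library, replicate 2 of Adr at 1 day, at 121, 445 and 48.3 FPKM. For 10 of the 15 genes the next highest library was Arrest 3 d replicate 4, for example with Spp1 at 66.2 FPKM and Col1a1 at 101 FPKM.

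**Figure D4:**
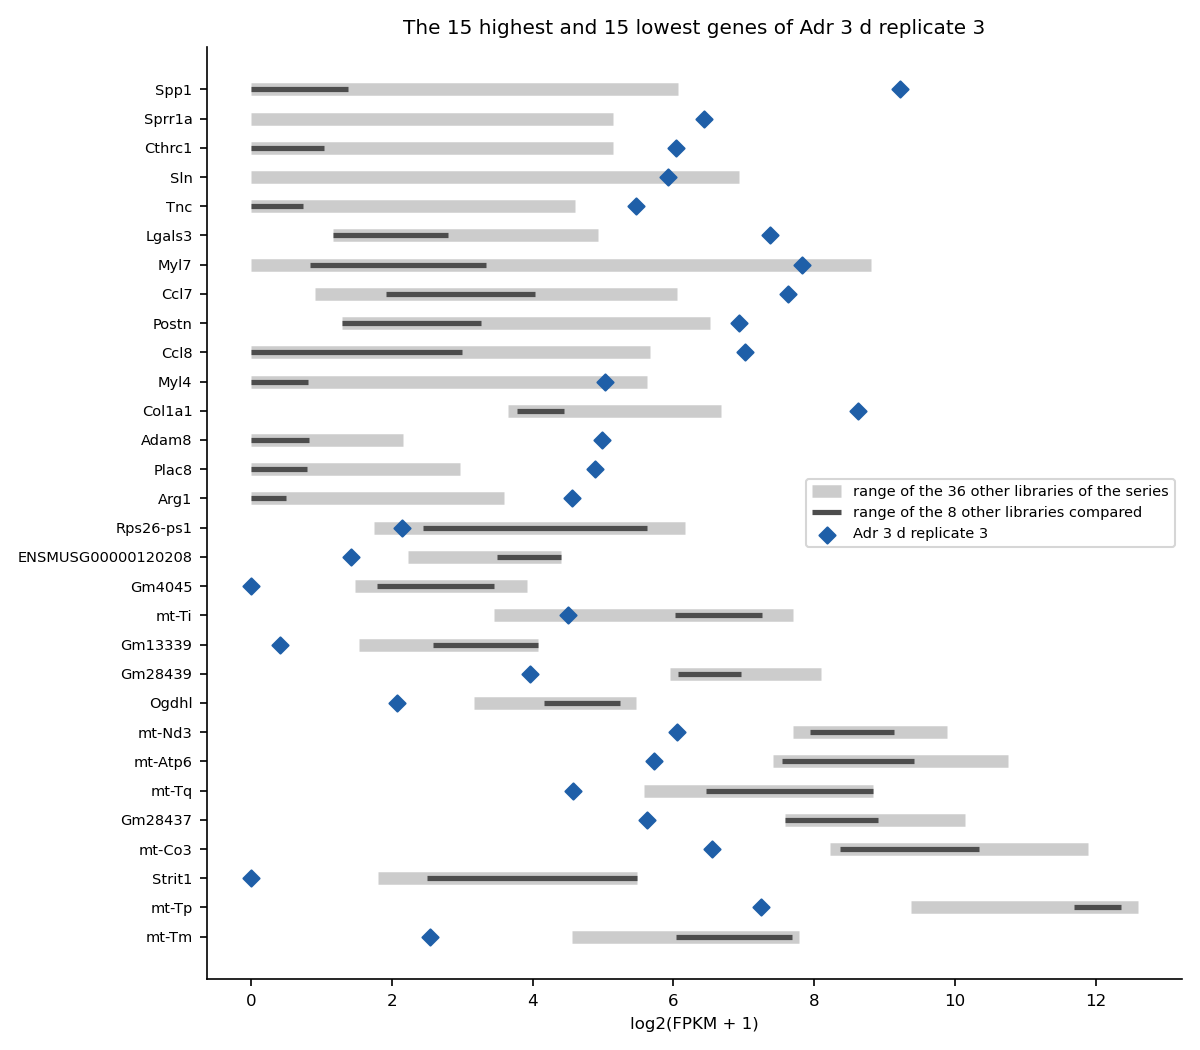
The 15 highest and 15 lowest genes of Adr 3 d replicate 3 by ratio to the mean of replicates 1, 2 and 4, in log2(FPKM + 1). Diamonds are replicate 3, dark bars the range of the 8 other libraries compared and light bars the range of the 36 other libraries of the series; replicate 3 lay above the light bar in 12 of the 15 high genes and below it in 13 of the 15 low genes.

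The lowest genes were mainly mitochondrial and cardiomyocyte transcripts. Of the 15, 7 are genes of the mitochondrial genome, 4 of them tRNA genes. mt-Co3, a subunit of cytochrome c oxidase, stood at 92.8 FPKM against 1301, 345 and 589 FPKM in replicates 1, 2 and 4, and mt-Atp6, a subunit of ATP synthase, at 51.6 against 298, 262 and 685 FPKM. The 13 protein genes of the mitochondrial genome summed to 51050 FPKM in replicate 3, against 189170 to 223600 FPKM in the other Adr libraries. mt-Co3 and mt-Atp6 made up little of these sums, and whether their reads were shared with other copies was not tested. Strit1, which encodes DWORF, a micropeptide that activates the calcium pump, was listed at 0 against 5.9, 8.36 and 8.37 FPKM, and Ogdhl, a relative of oxoglutarate dehydrogenase, stood at 3.2 FPKM against 33.1, 16.9 and 30.7 FPKM. Gm28437, Gm28439 and Gm13339, unprocessed pseudogenes whose reads can be shared with other copies, also belong to the 15 low genes.

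Energy metabolism lay low as a whole. Replicate 3 was below all 8 other libraries in 36 of 37 complex I genes, 39 of 43 genes of complexes II to V, 25 of 27 genes of the citric acid cycle and pyruvate oxidation and 29 of 35 genes of fatty acid uptake and oxidation, where the share over all genes was 24%. Idh2, a citric acid cycle enzyme, stood at 106 FPKM against 496 to 545 FPKM in the other Adr libraries, and Acadm, which oxidises medium-chain fatty acids, at 49.7 FPKM against 193 to 259 FPKM. Ppargc1a, a coactivator of mitochondrial genes, stood at 2.05 FPKM against 9.05 to 12.6 FPKM. Angptl4, an inhibitor of lipoprotein lipase, went the other way, at 13.8 FPKM against at most 1.89 FPKM.

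Contractile and calcium genes lay low as well. Replicate 3 was below all 8 libraries in 17 of 20 ventricular cardiomyocyte markers, 26 of 30 sarcomere and Z-disc genes, 15 of 19 calcium handling genes and 21 of 24 sodium and potassium channel genes. Over all genes this share was 24%. Atp2a2, the calcium pump SERCA2, stood at 427 FPKM against 1507 to 1552 FPKM, and Pln, its inhibitor phospholamban, at 142 FPKM against 569 to 633 FPKM. Mb, or myoglobin, stood at 858 FPKM against 3288 to 4436 FPKM. Ckm, the muscle creatine kinase, stood at 55.7 FPKM against 252 to 315 FPKM. The summed level of the ventricular markers was 6211 FPKM, against 15702 to 26076 FPKM in the other Adr libraries.

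The myeloid lists lay at the opposite end. All 25 tested genes of Fc gamma receptor phagocytosis were above all 8 other libraries and above all 36 others, where the shares over all genes were 25.6% and 16.9%. Of inflammatory monocyte genes, 11 of 13 were above the 8, with Ccr2, the monocyte chemokine receptor, at 11.3 FPKM against at most 0.944 FPKM in the other Adr libraries and Ms4a4c at 17.2 against at most 0.412 FPKM. Of resident macrophage genes, 19 of 27 were above, among them Trem2 (16.9 against at most 1.89 FPKM), Fcgr1 (32.1 against at most 3.11 FPKM) and Adgre1, the F4/80 antigen (44.2 against at most 9.14 FPKM).

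Timd4, Lyve1 and Cd163, markers of long-lived resident cardiac macrophages, were not above all the other Adr libraries, though Cd163 lay above replicates 1 and 2. Of the whole resident macrophage list, 19 of 27 genes were above the 8 libraries and 2 below. Timd4 stood at 0.934 FPKM in replicate 3 against 1.74, 2.02 and 5.03 FPKM in replicates 1, 2 and 4, Lyve1 at 11.7 FPKM against 15.8, 15.4 and 54.8 FPKM, and Cd163 at 4.43 FPKM against 3.84, 4.41 and 17.7 FPKM. Csf3r, a receptor of neutrophils, stood at 5.82 FPKM against at most 0.69 FPKM, and 3 of 6 tested neutrophil genes were above the 8 libraries. Of T cell genes 0 of 5 were above the 8 libraries and of B cell genes 3 of 8, with Cd3e at 0.0609 FPKM and Trac at 2.44 FPKM against 0 to 2.52 FPKM in the other Adr libraries. Only 5 of 24 T cell genes were tested. The whole T cell list summed to 11.8 FPKM in replicate 3, against 3.68 to 6.95 FPKM in the other Adr libraries and 1.08 to 9.36 FPKM in Naïve. Natural killer cell genes were above the 8 libraries in 2 of 4 cases and dendritic cell genes in 5 of 10. The share of all genes above the 8 libraries was 25.6%.

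Interferon-stimulated genes were above the 8 libraries in 29 of 33 cases, with Isg15 at 84.9 FPKM against 4.54 to 14.9 FPKM in the other Adr libraries and Cxcl10 at 10.5 FPKM against at most 0.611 FPKM. The share over all genes, here and for the next lists, was 25.6%. Proliferation genes were above in 20 of 21 cases, with Mki67 at 11.6 against at most 0.503 FPKM, Top2a at 10.1 against at most 0.524 FPKM and Cdc20 at 15.7 against at most 1.45 FPKM. Of the collagen list, 24 of 28 were above and 2 below, with Col1a2 at 171 against 9.21 to 15.4 FPKM and Col3a1 at 323 against 22.4 to 46.2 FPKM. Of the matricellular list, 22 of 33 were above, with Timp1 at 128 against 3.91 to 10.4 FPKM and Fn1, or fibronectin, at 99.9 against 4.1 to 5.35 FPKM.

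Of the metal, oxidative and heat stress list, replicate 3 was above the 8 libraries in 9 and below them in 9 of 29 genes, and of the endoplasmic reticulum list in 13 and 3 of 29. For these lists and those that follow, the shares over all genes were 25.6% above and 24% below. Hmox1, which degrades haem, stood at 349 FPKM in replicate 3, at 10.1, 10.1 and 35 FPKM in replicates 1, 2 and 4 and at 4.82 to 8.66 FPKM in Naïve. Gdf15, a stress-induced cytokine, stood at 12.1 FPKM against at most 2.04 FPKM in the other Adr libraries. Erythrocyte markers were below the 8 libraries in 7 of 9 genes, with Hbb-bs, a beta-globin, at 474 FPKM against 1827 to 2437 FPKM, although copies of haemoglobin genes share reads. Endothelial markers were below the 8 libraries in 9 and above in 1 of 24 genes, with Car4, a capillary carbonic anhydrase, at 3.14 FPKM against 10.2 to 15.6 FPKM. Ribosomal proteins were above in 60 of 76 genes, with a median log2 ratio to replicates 1, 2 and 4 of 0.38 as deposited and 0.06 when scaled outside the mitochondrial genome.

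In the adrenergic list replicate 3 was below the 8 libraries in 13 and above in 9 of 31 genes, beside 24% and 25.6% of all genes. Adra1b stood at 4.48 FPKM against 9.56 to 12 FPKM in the other Adr libraries, and Arrb2, an arrestin abundant in leukocytes, at 17.5 against 3.24 to 4.98 FPKM. Among other tissues, the lung epithelial list summed to 28.9 FPKM against 44.6 to 87.3 FPKM in the other Adr libraries, the skeletal muscle list to 318 against 738 to 1238 FPKM, and the liver list to 42.9 against 23.1 to 54.7 FPKM. In summed level none of these 3 lists was above the other Adr libraries in replicate 3. Only 1 of 13 lung, 9 of 22 skeletal muscle and 3 of 17 liver genes reached the level for testing. Ckm and Acta1 of the skeletal muscle list also stand on the heart muscle lists. These sums therefore cannot show whether other tissue was present. Atrial and ventricular median ratios differed in sign as deposited, but the atrial median turned from 0.16 to -0.09 when scaled outside the mitochondrial genome, and that of the endoplasmic reticulum list from 0.21 to -0.08.

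**Figure D5:**
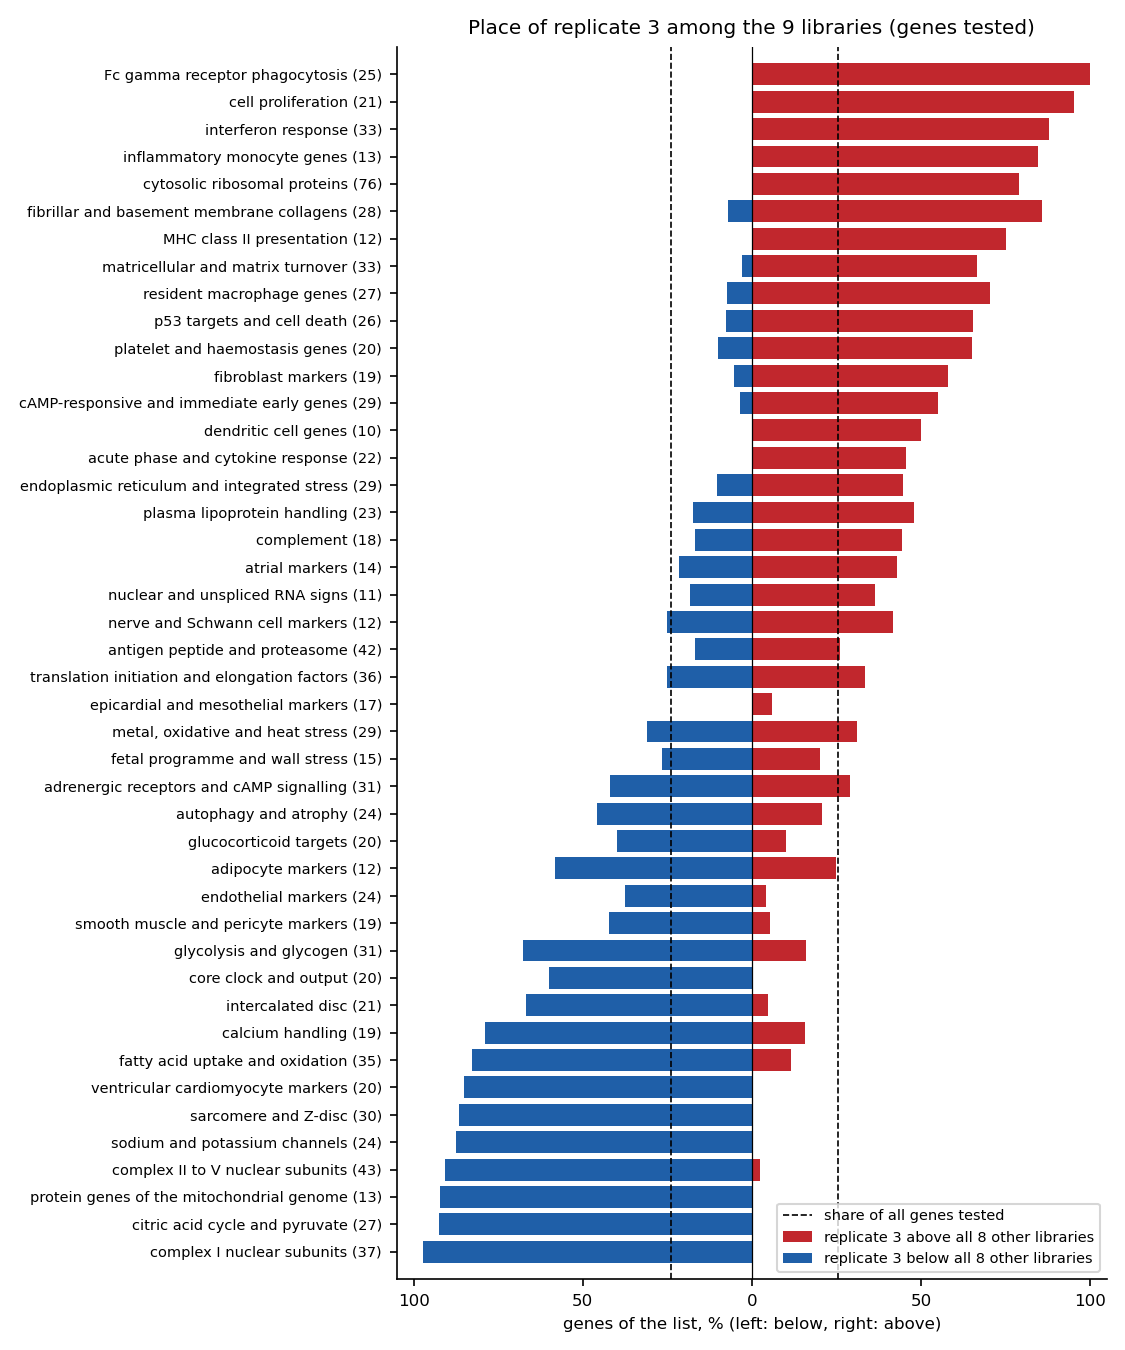
Share of each list's tested genes (number in parentheses) in which Adr 3 d replicate 3 lay above all 8 other libraries (red, right) or below them (blue, left); dashed lines give the shares over all genes tested, 25.6% and 24%. Phagocytosis, proliferation and interferon lists lay at the right end, and respiratory chain and citric acid cycle lists at the left end.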

How the data were processed

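Groups came from the sample labels, which call Adr sham. The authors deposited 1 table of FPKM values, after HISAT2 alignment. The build and the counting tool are not given in the sources used here, so no coordinates are printed. The authors' methods exclude 1 Adr library at 3 days for poor quality, and neither they nor the labels say which. FPKM multiplied by gene length gave whole fragments for 100% of values (tolerance 0.01), hence the depth per library. No per-sample column was unused (0 columns), and no 2 of the 9 libraries were copies (lowest chi-square per gene 13.8 over 36 pairs). Genes with at least 0.5 FPKM in 4 of 9 libraries were tested as log2(FPKM + 1) with limma 3.58.1 (R 4.3.3, eBayes with trend, no covariates), checked on simulated data. Fold changes on this scale understate those of low genes. Labels name no litter or day, so p-values measure the spread between these samples. Measures of whole libraries went through 2-sided exact permutation, for which the smallest p is 0.016 for 4 against 5 libraries and 0.036 for 3 against 5. Replicate numbers did not pair the libraries. Genes were named by rule: up to 10 per direction and comparison with a mean of at least 1 FPKM, separated groups and the smallest p, 3 per list by p without replicate 3, and the 15 highest and 15 lowest of replicate 3; further list members were named after their values were seen. The members and the 57 gene lists were chosen with earlier results of these data known. Some genes that the rule names are not reported here.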

Additional observations from a re-analysis of the deposited data

Results flagged for a closer look

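In 150 sets of values, each from the 4 Adr or the 5 Naïve libraries, a library was set apart when its gap to the nearest other library exceeded Dixon's 95% critical value for that number of libraries, and 24 values met this. Chance alone gives such a gap in about 5% of sets, the genes are not independent, and the genes chosen for their ratio in Adr replicate 3 were not put through this test.

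Adr replicate 3 held 8 of the 24 values. They were the mitochondrial share of fragments (9.36%), the share of the 10 top genes (26%), and the FPKM of Gm12338 (72.3), Wdr1 (23.3), Cd68 (156.6), Cox4i1 (373.6), Fos (45) and Gnas (3.93). Cd68, Fos and Wdr1 lay above the other Adr libraries and the rest below.

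Of the other Adr libraries, replicate 2 stood apart in Mylk at 2.6 FPKM and replicate 1 in Retnla at 27 FPKM, both above their group. Naïve replicate 4 stood apart with 13475 genes above 0, 12369 genes at 0.5 FPKM or more, and Ttn at 20.8 and Rpl7a at 49 FPKM. Naïve replicate 5 was high in Egr1 (11.3 FPKM), Egr2 (1.68 FPKM) and ENSMUSG00000120878 (0.623 FPKM). Naïve replicate 3 was high in Ndufa12 (79.2 FPKM), Gm6058 (0.381 FPKM) and Gm25897 (0.711 FPKM). Naïve replicate 2 was low in Cd68 (5.26 FPKM) and above 0 in Gm8066 (0.13 FPKM), and Naïve replicate 1 was low in Dsp (71.6 FPKM) and above 0 in Sgtb (0.291 FPKM).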

How the results depend on the processing

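The count of called genes was 0 in both comparisons and stayed 0 under quantile normalization, scaling outside the mitochondrial genome, median-ratio scaling, a pseudocount of 0.1, no filter, a filter of a mean of 1 FPKM, sample weights, a sex covariate, moderation without a trend, voom and removal of the length trend. It was 5 with all 4 Adr libraries in 1 model of all libraries, and ranged from 0 to 1 when single libraries were left out, with and without replicate 3. Same-numbered libraries did not deviate together (correlations of -0.12 to -0.0045), so replicate numbers did not pair them, and a replicate block also gave 0 calls in both comparisons, with 600 genes below an unadjusted p of 0.05 with replicate 3 and 664 without it. Unadjusted counts ranged over leave-one-out settings from 606 to 1140 with replicate 3 and from 428 to 927 without it, were 2029 and 1032 in the model of all libraries, and 1086 and 1127 with no filter. The Adr minus Naïve difference in genes above 0 ranged from 1538 to 2629 over single omissions, and was 114 (exact permutation p = 0.063) over genes with a symbol and a mean of at least 1 FPKM, where that in genes at 0.5 FPKM or more was 136.9 (exact permutation p = 0.032). The difference in the length correlation ranged from -0.21 to -0.14 with replicate 3 and from -0.24 to -0.17 without it. Its exact permutation p was 0.057 or 0.071 in 7 of 9 omissions with replicate 3. Without replicate 3 it was 0.057 or 0.095 in all 8, the smallest exact permutation p that groups of those sizes allow. Those 8 values could not fall below 0.05 and so do not show a weaker difference. Without replicate 3 the difference in mitochondrial share ranged from -0.62 to 0.82 percentage points and that in the share of the 10 top genes from -1.67 to 0.012, both near 0. With 3 to 5 libraries a group and depths of 13.4 to 24.7 M fragments, genes at a few fragments carry large counting error.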
